A study of Homo sapiens with 38 samples.

Results

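The step studied here ran from day 2 to day 4 after naive human pluripotent stem cells were moved from naive medium into N2B27, a defined basal medium with the N2 and B27 supplements. It was chosen by medium and day alone. The 2 libraries of N2B27 d4 of the main experiment were set against the 2 of N2B27 d2, with the 2 of N2B27 d3 as the point between them, which makes 6 of the 38 libraries of the series. The cells were Shef6, an established human embryonic stem cell line, kept naive in PXGL (inhibitors of MEK, tankyrase and protein kinase C with LIF), on dishes coated with serum or with the basement membrane gel Geltrex. For the step they were plated on Geltrex in N2B27 with a ROCK inhibitor on the day of plating, and polyadenylated RNA was counted by 3′ mRNA sequencing. All 6 libraries shared the line, the earlier adaptation to serum coating, the Geltrex and the medium, and differed in day. 2 other sets served for comparison: 4 libraries of days 2 and 4 in E8, a defined medium that holds FGF2 and TGFβ, and 2 libraries of N2B27 d4 labelled Ex2, a separate experiment with no day 2 of its own. The replicates were of a single cell line and the sources call them technical in some places and biological in another, so every p-value measures the spread between these libraries, which may be technical.

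Naive cells resemble the epiblast of the blastocyst. Without naive self-renewal signals they pass through a formative state, in a process called capacitation, before they can take on embryonic fates. Trophectoderm, per the study, can be entered from the naive state directly. Nodal, and FGF acting through ERK, drive or accompany capacitation. Nodal together with WNT sets the primitive streak program (TBXT, MIXL1, EOMES), and BMP feeds amnion and mesoderm fates. Glycolysis and the response to low oxygen share target genes of the hypoxia-inducible factors, whose core binding letters are ACGTG.

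Promoters of 6 genes that rose from day 2 to 4 are shown as examples of these 2 programs, the streak and WNT targets first and the low-oxygen and glycolysis genes after them. Each is the RefSeq sequence of 250 bases before to 50 after the gene start on GRCh38.p14, written on the strand of the gene. Capitals mark matches to ATCAAAG and TTCAAAG (letters that TCF/LEF factors of the WNT pathway bind), TGTNNATT (FOXH1, a partner of SMADs in Nodal signalling) and ACGTG, each searched on both strands. The window of SP5 lies at chr2:170715087-170715386 (plus strand), MIXL1 at chr1:226223414-226223713 (plus), TBXT at chr6:166168606-166168905 (minus), LDHA at chr11:18394313-18394612 (plus), BNIP3 at chr10:131981874-131982173 (minus) and P4HA1 at chr10:73096817-73097116 (minus).
SP5: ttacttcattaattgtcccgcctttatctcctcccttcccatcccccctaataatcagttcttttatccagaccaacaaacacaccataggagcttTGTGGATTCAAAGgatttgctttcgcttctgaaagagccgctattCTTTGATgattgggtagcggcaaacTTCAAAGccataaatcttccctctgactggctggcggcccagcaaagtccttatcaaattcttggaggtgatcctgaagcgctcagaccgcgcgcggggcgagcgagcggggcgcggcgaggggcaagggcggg
MIXL1: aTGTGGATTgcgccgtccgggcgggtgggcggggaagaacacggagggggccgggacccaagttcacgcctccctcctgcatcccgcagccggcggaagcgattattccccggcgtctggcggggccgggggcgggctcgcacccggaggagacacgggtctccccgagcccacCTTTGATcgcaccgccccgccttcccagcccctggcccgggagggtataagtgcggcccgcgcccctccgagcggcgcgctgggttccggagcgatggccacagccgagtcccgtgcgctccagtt
TBXT: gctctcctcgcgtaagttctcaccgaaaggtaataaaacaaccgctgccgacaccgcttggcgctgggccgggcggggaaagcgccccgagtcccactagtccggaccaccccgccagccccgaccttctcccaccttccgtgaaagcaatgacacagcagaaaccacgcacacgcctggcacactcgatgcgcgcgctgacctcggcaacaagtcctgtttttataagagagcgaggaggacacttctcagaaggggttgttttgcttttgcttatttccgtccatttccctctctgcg
LDHA: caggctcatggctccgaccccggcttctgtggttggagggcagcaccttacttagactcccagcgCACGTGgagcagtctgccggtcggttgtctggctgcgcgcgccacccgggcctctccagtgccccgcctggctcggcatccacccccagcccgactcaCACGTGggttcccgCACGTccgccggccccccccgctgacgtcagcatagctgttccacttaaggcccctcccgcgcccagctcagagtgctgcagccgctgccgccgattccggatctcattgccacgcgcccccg
BNIP3: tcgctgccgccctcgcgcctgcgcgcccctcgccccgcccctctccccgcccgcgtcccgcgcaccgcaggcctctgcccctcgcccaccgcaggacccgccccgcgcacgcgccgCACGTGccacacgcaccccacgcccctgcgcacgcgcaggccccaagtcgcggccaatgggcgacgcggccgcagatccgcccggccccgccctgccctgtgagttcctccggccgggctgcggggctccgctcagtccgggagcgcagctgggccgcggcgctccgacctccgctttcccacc
P4HA1: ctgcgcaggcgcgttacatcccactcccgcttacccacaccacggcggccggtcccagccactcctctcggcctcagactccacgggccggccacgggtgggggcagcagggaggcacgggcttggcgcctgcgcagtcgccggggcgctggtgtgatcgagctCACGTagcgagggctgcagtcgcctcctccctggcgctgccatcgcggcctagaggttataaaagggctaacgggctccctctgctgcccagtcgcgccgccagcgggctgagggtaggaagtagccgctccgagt

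SP5, a direct WNT target in many tissues, had 1 match to ATCAAAG, 2 to TTCAAAG and 1 to TGTNNATT, the last of which shares letters with a TTCAAAG match. MIXL1 had 1 match each to ATCAAAG and TGTNNATT, and the TBXT window held none of the letters searched. Of 27305 RefSeq promoters of this length, 2.64% held ATCAAAG, 4.53% TTCAAAG and 11.1% TGTNNATT, and of the 10818 promoters of genes tested here the shares were 1.45%, 2.63% and 5.52%. ACGTG was read 5 times in LDHA, 2 times in BNIP3 and 1 time in P4HA1, where the palindrome CACGTG counts as 2 matches, and 21.6% of all promoters, 26.2% of those of genes tested and 22.9% of those of genes called higher held it. It was found in 5 of the 11 low-oxygen genes and 9 of the 24 glycolysis genes that had a promoter in the table, and it was searched after the expression values were seen. The 3 low-oxygen and glycolysis promoters printed all hold ACGTG, while those of ADM, EGLN3, PDK1, PFKFB3, PFKFB4, PFKM and SLC16A3, which were also called higher, do not. A match is a description of letters and not a site of binding.

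The 6 libraries held 4161291 to 5612354 counts, and 16674 of 57133 genes were tested. Levels are in CPM, each library's reads put on one common total with TMM factors, and are given as replicate 1 and replicate 2. The floor of 3 counts corresponded to 0.520 to 0.738 CPM. Pluripotency markers were present throughout: NANOG was at 1150 and 1025 CPM on day 2 and 1124 and 1138 on day 4. Replicate 2 of day 2 and replicate 1 of day 3 stood apart from the rest. The distance between the day 2 replicates (76.2, Euclidean on log2 CPM over all genes tested) exceeded that from day 2 replicate 1 to day 3 replicate 2 (73.6). The day 3 replicates (74.5) lay further from each other than day 3 replicate 2 lay from either day 4 library (62.7 and 64.8). The day 4 replicates were 53.2 apart. Mitochondrially encoded genes took 3.46% and 3.44% of counts on day 2, 2.73% and 2.55% on day 3 and 2.68% and 2.55% on day 4. The part of these library differences in the results was not tested.

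**Figure D1:**
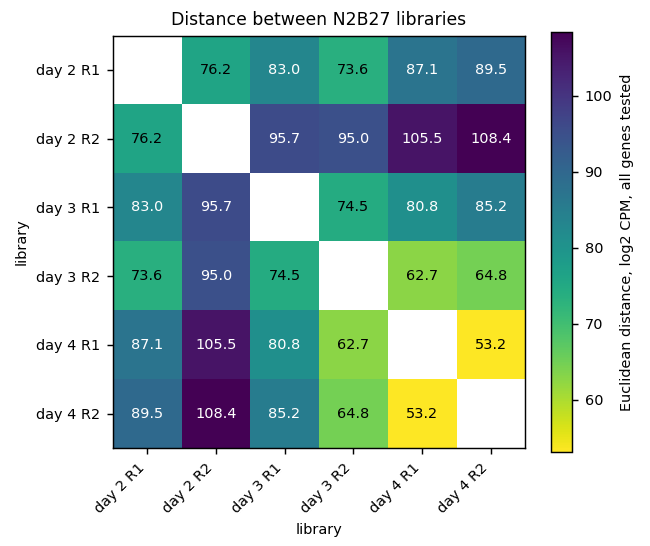
Distance between each pair of the 6 N2B27 libraries of days 2, 3 and 4 (Euclidean distance on log2 CPM over all genes tested; both axes are libraries, darker is further). The day 4 pair is the closest at 53.2, and day 2 replicate 2 lies furthest from day 4.

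From day 2 to 4, 1486 genes were called, meaning an adjusted p under 0.05 and a log2 fold change beyond 1 in either direction. Of these, 945 were higher on day 4 (5.67% of the genes tested) and 541 were lower (3.24%). Each count of list members called from day 2 to 4 below is to be read beside these shares. Without day 2 replicate 2 the count was 890, with 610 higher and 280 lower. It was 985 without day 4 replicate 2, and 951 without both day 2 replicate 2 and day 3 replicate 1. The 2 libraries of day 2 and the 2 of day 4 did not overlap for 9976 genes (59.8%), so a lack of overlap alone says little of a gene. The day 2 to 3 interval had 337 genes called higher (2.02%) and 194 lower (1.16%), and the day 3 to 4 interval had 133 higher (0.798%) and 48 lower (0.288%). The direction of the first interval also turned on single libraries, with 408 higher and 474 lower without day 2 replicate 1 and 322 higher and 336 lower without day 3 replicate 2. Scaled by plain library totals, 84.2% of the calls from day 3 to 4 were higher, against 73.5% as reported. Those counts rested on single libraries: the first interval had 206 calls without day 2 replicate 2, 882 without day 2 replicate 1 and 337 without day 3 replicate 1. The later one had 48 without day 3 replicate 1, 498 without day 3 replicate 2, 103 without day 4 replicate 1 and 56 without day 4 replicate 2. On day 3 the mean lay between those of days 2 and 4 for 867 of the 945 genes called higher (91.7%) and 465 of the 541 called lower (86.0%), as a description, since these genes were chosen for a gap between the outer days. Over all genes tested, most of which had no such gap, the share was 45.7%. The median gene called higher had covered 0.577 of its log2 change by day 3 and the median gene called lower 0.633.

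Before the pathways, the genes with the largest rises are given. NRK, an X-linked kinase gene (chrX:105822539-105958610), was at 4.80 and 5.46 CPM on day 2, 32.2 and 30.6 on day 3 and 86.8 and 79.6 on day 4. Its days did not overlap, and its log2 fold change from day 2 to 4 was 4.02 ± 0.22 (SE of the fit, n = 2 per day; edgeR quasi-likelihood test, adjusted p = 4.75e-14, as for every adjusted p here). SPP1, the secreted phosphoprotein osteopontin, climbed in the same stepwise way, from 29.6 and 49.1 CPM through 112 and 107 to 268 and 231 (2.68 ± 0.15, adjusted p = 8.86e-14). RGS5, a regulator of G-protein signalling, rose from 4.2 and 3.80 CPM through 14.5 and 15.8 to 49.4 and 47.1 (3.58 ± 0.24, adjusted p = 1.41e-12). For these 3 genes the calls held for both daily intervals and under every alternative run. RAB17, a small GTPase of epithelial transport (3.77 ± 0.32), TTN, which encodes the sarcomere protein titin (2.91 ± 0.27), PPL, the desmosome-linked protein periplakin (2.77 ± 0.24), and NRP2, a semaphorin and VEGF co-receptor (2.7 ± 0.25), completed this set with TBXT, ACTC1 and SOX3, which are described with their groups.

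Of the 24 formative and primed genes tested, 10 were called higher on day 4 and none lower, with a median log2 change of 0.59 against 0.00397 over all genes tested. These were ZIC2, SALL2, CDH2, SOX11, PTPRZ1, NTS, VIM, CRABP1, SOX3 and KDR. The same 10 were called without either day 2 library and with the Ex2 libraries in place of day 4. SOX11, a transcription factor of early neural and formative cells (chr2:5692384-5701385), was at 45.8 and 50.3 CPM on day 2, 158 and 140 on day 3 and 145 and 151 on day 4. Its whole difference was present by day 3: the log2 change was 1.64 ± 0.14 from day 2 to 3 (adjusted p = 1.52e-08) and -0.01 ± 0.13 from day 3 to 4 (adjusted p = 0.983). SOX3, its relative on the X chromosome, went on climbing, with 6.80 and 7.12 CPM, then 28.3 and 39.6, then 52.3 and 47.5 (day 2 to 4, 2.84 ± 0.21, adjusted p = 1.25e-11). The day 3 to 4 interval did not pass (0.55 ± 0.17, adjusted p = 0.062). NTS, which encodes the peptide neurotensin, did the reverse. It was at 1.40 and 1.42 CPM on day 2, 2.21 and 3.4 on day 3 and 10.4 and 9.68 on day 4, and passed in the later interval (1.80 ± 0.29, adjusted p = 0.000339; day 2 to 3, 1.01 ± 0.44, adjusted p = 0.146). ZIC2, a zinc finger factor that marks the primed state, rose from 29.8 and 21.1 CPM to 65.0 and 71.3. CDH2, the N-cadherin gene that marks epiblast after implantation, stayed low, at 1.40 and 1.19 CPM on day 2 and 6.76 and 4.48 on day 4. VIM, the intermediate filament vimentin, moved from 3.0 and 1.42 CPM to 9.53 and 10.8. In the naive cells of the series SOX11 averaged 1.37 ± 0.464 CPM (SD, n = 6 libraries) and PTPRZ1 0.0369 ± 0.0904, so day 2 was already well above the naive level for both.

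Of 29 naive genes tested, 5 were called lower on day 4 (KLF4, SUSD2, SPIC, ARGFX and OLAH) and none higher, with a median log2 change of -0.32. KLF4, a core factor of the naive network (chr9:107484852-107490482), was at 91.6 and 63.4 CPM on day 2, 46.5 and 42.4 on day 3 and 26.0 and 27.4 on day 4, with no overlap between days. Its log2 change was -1.54 ± 0.17 (adjusted p = 3.61e-08), but the day 4 libraries of Ex2 held 52.6 and 61.8 CPM and gave -0.43 with no call. SUSD2, a surface marker of naive cells, went from 218 and 288 CPM to 104 and 120 (-1.17 ± 0.15, adjusted p = 6.81e-07). That is a decline from a raised level, since the naive libraries averaged 95.2 ± 15.8 CPM (SD, n = 6), and its change was inside the fold threshold without day 2 replicate 2 (-0.97) and with Ex2 as day 4 (-0.91). Without day 2 replicate 2 the naive list had 3 calls. ARGFX, a homeobox gene of the early embryo, fell from 7.60 and 5.70 CPM to 1.56 and 1.61. OLAH (4.0 and 10.9 CPM, then 2.77 and 1.43) was not called without day 2 replicate 2 (-0.93) or day 4 replicate 2 (-1.41). SPIC, near the floor at 2.60 and 1.42 CPM and then 0.693 and 0.358, was not called without day 2 replicate 1 (-1.40) or either day 4 library. TFCP2L1, another core naive factor, had a smaller change than the threshold, from 210 and 204 CPM to 112 and 108 (-0.91 ± 0.11, adjusted p = 5.96e-07). KLF17, a naive-specific zinc finger factor, was highest on day 3, at 56.2 and 41.1, 110 and 89.5, and 61.0 and 57.7 CPM. Its day 2 to 3 call (1.02 ± 0.25, adjusted p = 0.00657) was lost without either library that stood apart (0.81 and 0.86).

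Among 12 general pluripotency genes, POU5F1 alone was called, lower on day 4. The day 2 libraries disagreed on it, at 555 and 1203 CPM, against 345 and 446 on day 3 and 412 and 465 on day 4. The log2 change of -1.0 ± 0.29 (adjusted p = 0.0121) became -0.36 (adjusted p = 0.53) without day 2 replicate 2 and -0.92 without day 4 replicate 1, neither called. With the replicate number as a block it was -1.0 at the edge of the fold threshold and not called. SOX2 was at 358 and 370 CPM on day 2, 476 and 366 on day 3 and 237 and 229 on day 4, a change of -0.64 ± 0.11 (adjusted p = 0.000115) inside the fold threshold. NANOG differed by 0.06 ± 0.10 (adjusted p = 0.748). In the DNA methylation list of 10 genes, the dioxygenase TET2 was called lower, from 6.60 and 8.78 CPM to 3.29 and 4.12, and lost the call without day 2 replicate 2 (-0.85) or day 4 replicate 1 (-0.88).

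**Figure D2:**
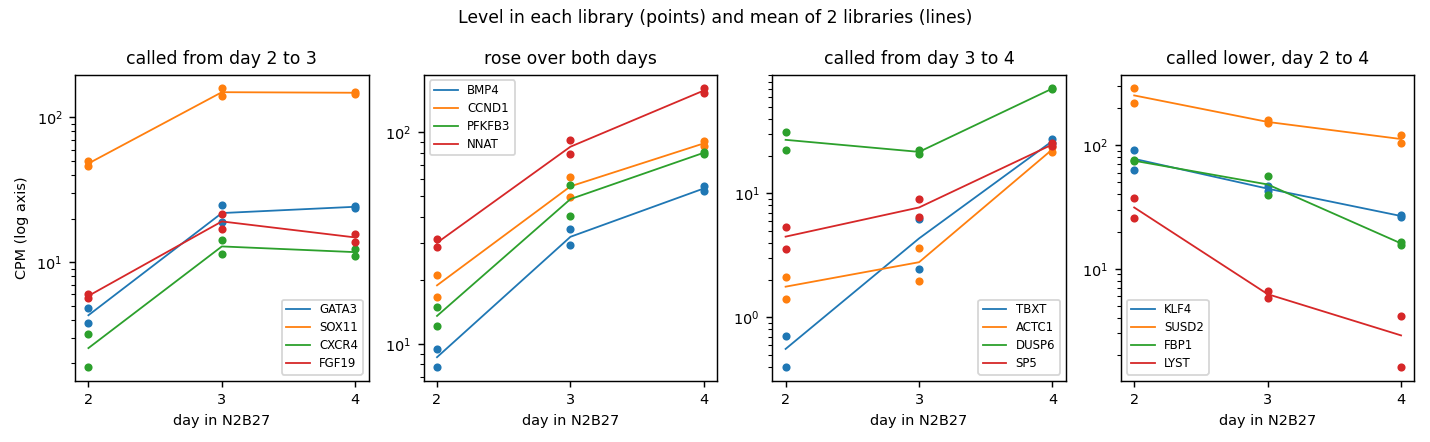
Level (CPM, log axis) of 16 genes on days 2, 3 and 4 in N2B27, with a point for each library and a line through the mean of 2 libraries. GATA3, SOX11, CXCR4 and FGF19 reached their day 4 range by day 3, BMP4, CCND1, PFKFB3 and NNAT climbed over both intervals, ACTC1, DUSP6 and SP5 rose mainly from day 3 to 4, TBXT rose by similar steps on the log axis in both intervals, and KLF4, SUSD2, FBP1 and LYST were lower on day 4.

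The FGF and ERK genes changed unevenly. Of 9 FGF ligands and receptors, FGF19, a secreted FGF with endocrine roles, was the gene called, at 6.0 and 5.70 CPM, then 21.4 and 16.8, then 13.9 and 15.8, and its rise was complete by day 3 (1.69 ± 0.27, adjusted p = 0.0001). Of 19 ERK feedback genes and targets, 3 were called higher (DUSP4, DUSP6 and CCND1) and none lower. DUSP6, the phosphatase that switches off ERK (chr12:89347235-89352501), was at 31.6 and 22.5 CPM on day 2, 20.7 and 22.6 on day 3 and 70.4 and 70.2 on day 4. Days 2 and 3 overlapped and day 4 stood clear of them (day 3 to 4, 1.69 ± 0.17, adjusted p = 4.08e-07). The Ex2 libraries of day 4 held 25.5 and 21.2 CPM, at the level of day 2, and in their place the day 2 to 4 change was -0.21. Its relative DUSP4 rose more evenly, from 21.8 and 26.8 through 33.2 and 39.4 to 49.1 and 55.5 CPM (1.11 ± 0.17, adjusted p = 1.08e-05), and was at 60.2 and 56.4 in Ex2. Its change was just inside the fold threshold without day 2 replicate 1 (0.95) or day 4 replicate 2 (0.99). CCND1, the G1 cyclin D1, climbed at each step, from 21.2 and 16.6 through 49.7 and 61.5 to 86.1 and 91.4 CPM (2.22 ± 0.18, adjusted p = 6.19e-11). Other ERK feedback genes had lower values on day 4 inside the fold threshold: SPRY2 went from 88.2 and 89.9 to 51.0 and 56.8 CPM (-0.73 ± 0.14), and ETV4 from 105 and 164 to 69.3 and 79.6 (-0.85 ± 0.17). Without day 2 replicate 1 ETV4 was called lower (-1.15), and the list then had 3 genes higher and 1 lower. With plain library totals the list had 5 calls, all higher. EGR1, an immediate early ERK target, dipped, at 9.0 and 10.2 CPM, then 3.69 and 3.20, then 7.80 and 7.53. It was called in both intervals (-1.47 ± 0.30, adjusted p = 0.00158, then 1.15 ± 0.30, adjusted p = 0.0266), the later call being lost without any of the day 3 or day 4 libraries (1.04 to 1.25).

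In the Nodal list of 19 genes, the feedback inhibitors LEFTY1 and LEFTY2 were the 2 called, both higher. They are near-identical neighbours whose reads may be split between them. LEFTY2 was at 14.0 and 6.41 CPM on day 2, 34.4 and 37.6 on day 3 and 52.5 and 59.3 on day 4 (2.42 ± 0.28, adjusted p = 9.47e-08). LEFTY1 moved from 56.6 and 38.4 through 89.3 and 131 to 131 and 129 CPM (1.44 ± 0.18, adjusted p = 6.11e-07). For both genes most of the difference was present on day 3. The ligand NODAL had 124 and 78.3 CPM on day 2 and 168 and 181 on day 4, a change of 0.78 ± 0.16 (adjusted p = 0.000763) below the fold threshold, though 1.14 and called without day 2 replicate 1. With Ex2 as day 4, LEFTY1 was at 82.3 and 88.7 CPM and lost the call (0.85), and LEFTY2 at 40.9 and 47.1 kept it.

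BMP genes included a ligand with a large and early rise. BMP4 (chr14:53949736-53958761) was at 7.80 and 9.49 CPM on day 2, 34.9 and 29.2 on day 3 and 55.6 and 53 on day 4, without overlap between days. The log2 change was 2.66 ± 0.18 from day 2 to 4 (adjusted p = 2.44e-12), of which 1.89 ± 0.19 fell in the first interval (adjusted p = 7.65e-08) and 0.77 ± 0.15 in the later one. Of 18 BMP genes tested, 4 were called higher (BMP4, BMP7, ID3 and SMAD6) and 1 lower (BMP2). ID3, a direct target of BMP signalling, rose from 27.6 and 18.7 to 54.3 and 68.4 CPM and SMAD6, an inhibitory SMAD induced by BMP, from 8.40 and 9.73 to 32.8 and 38.5 (1.98 ± 0.23, adjusted p = 9.44e-08). BMP7 moved from 10.0 and 9.02 to 22.5 and 19.5 CPM. BMP2, whose naive level averaged 37.7 ± 17.2 CPM (SD, n = 6), had 20 counts in all on day 2 and 5 on day 4, a ratio of 4.93 (95% counting interval 1.79 to 16.8, counting error only). It was not called without day 4 replicate 2 (-2.03). ID3 (0.74) and BMP7 (0.63) were inside the fold threshold with Ex2 as day 4.

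The WNT list had 2 genes called higher and 1 lower of 29 tested, near the shares of all genes tested (5.67% higher and 3.24% lower). As a list it therefore did not stand out, and its called genes are given singly. SP5, a zinc finger target of WNT signalling whose promoter is printed above (chr2:170715337-170718078 for the gene), was at 5.40 and 3.56 CPM on day 2, 6.40 and 9.01 on day 3 and 24.1 and 25.6 on day 4. The change came late, with 0.78 ± 0.40 in the first interval (adjusted p = 0.217) and 1.67 ± 0.30 in the later one (adjusted p = 0.000963). Without day 3 replicate 1 that later interval gave 1.46 and was no longer called. WNT5A, a ligand that mostly acts outside the β-catenin route, went from 1.80 and 1.9 CPM to 8.32 and 7.35 (2.07 ± 0.44, adjusted p = 0.000985). SFRP1, a secreted WNT inhibitor, fell from 17.4 and 14.5 CPM to 7.28 and 8.24 (-1.04 ± 0.20, adjusted p = 0.000321), with its day 3 values of 5.91 and 9.61 already in that range. It had changes of -0.91 and -0.95, not called, without day 2 replicate 1 or day 4 replicate 1. SOCS3, the feedback inhibitor of JAK-STAT signalling, was the single call of 11 genes of the LIF pathway, higher on day 4 (4.80 and 3.32 CPM, then 11.4 and 11.5).

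Streak and mesoderm genes split in direction, with 4 of 18 called higher (TBXT, MIXL1, KDR and ACTC1) and 3 lower (EVX1, APLNR and CDX1). TBXT, the streak and mesoderm factor brachyury (chr6:166157656-166168700), was at 0.400 and 0.712 CPM on day 2 (2 and 3 counts), 2.46 and 6.21 on day 3 and 27.4 and 25.6 on day 4. The days did not overlap, and the ratio of day 4 to day 2 was 48.9 with a 95% counting interval of 20.7 to 152 (adjusted p = 3.43e-11). The day 3 replicates differed from each other by more than the day 4 ones, yet the later interval was called under every alternative run (2.56 ± 0.28, adjusted p = 1.08e-06). MIXL1, a homeobox target of Nodal in the streak, rose from 8.00 and 4.27 CPM through 10.6 and 14.2 to 28.4 and 31.2 (2.25 ± 0.25, adjusted p = 7.79e-08). Its later interval was not called without day 3 replicate 1 (1.07). ACTC1, the cardiac α-actin gene (chr15:34790107-34795589), was at 1.40 and 2.14 CPM on day 2, 1.97 and 3.60 on day 3 and 23.7 and 21.7 on day 4. Its days 2 and 3 overlapped, and nearly the whole difference of 3.69 ± 0.29 (adjusted p = 5.85e-11) arose from day 3 to 4 (2.98 ± 0.27, adjusted p = 2.71e-08). EOMES, a T-box factor of streak and endoderm, stayed low at 2.20 and 1.42 CPM on day 2 and 4.85 and 3.4 on day 4 (1.16 ± 0.46, adjusted p = 0.0654). In the opposite direction, EVX1 went from 10.8 and 7.59 to 2.77 and 3.4 CPM, and CDX1 from 9.20 and 11.9 to 2.95 and 2.51. APLNR went from 5.0 and 6.17 to 1.91 and 2.51 CPM, without a call when day 2 replicate 2 (-1.19), day 4 replicate 1 (-1.14) or day 4 replicate 2 (-1.55) was left out. In Ex2, TBXT (16.9 and 21.9 CPM), MIXL1 (13.3 and 15.2) and SP5 (11.5 and 22.6) were called higher than day 2 as well.

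Lists of other cell types that the cultures could hold were read in the same way. In bulk libraries, fewer cells of a type and less RNA per cell cannot be told apart. Among 16 trophectoderm and amnion genes, 4 were called higher (GATA3, ENPEP, ABCG2 and IGFBP3) and 3 lower, DLX3 and ISL1 among them. Their summed level was 109 and 99.0 CPM on day 2, 180 and 164 on day 3 and 213 and 198 on day 4. ABCG2 and GATA3 made up that rise, since without them the sum was 45.2 and 38, 47.2 and 43.8, and 42.6 and 36.7 CPM. GATA3, a factor of trophectoderm and amnion (chr10:8045378-8075198), was at 4.80 and 3.80 CPM, then 24.9 and 18.8, then 24.4 and 23.8, so that its rise was complete by day 3 (2.32 ± 0.29, adjusted p = 2.83e-06; day 3 to 4, 0.15 ± 0.22, adjusted p = 0.786). ENPEP, a cell surface aminopeptidase, was low until day 3: it had 1 count in each day 2 library, 0.738 and 0.601 CPM on day 3 and 8.49 and 6.09 on day 4, a ratio to day 2 of 33.7 (95% counting interval 9.04 to 283). ABCG2, a membrane transporter, went from 58.8 and 57.2 to 146 and 137 CPM, and with Ex2 as day 4 (99.3 and 97.8) its change of 0.77 was inside the fold threshold. ISL1, an amnion and mesoderm factor, moved the other way and late, with 11.8 and 8.78 CPM, then 13.0 and 9.01, then 3.47 and 2.33 (-1.82 ± 0.37, adjusted p = 0.000564). Calls of low genes in this list were less stable: IGFBP3 (1.05 to 1.15) was lost without any 1 of the 4 libraries, and DLX3 without day 2 replicate 1 (-1.20) or day 4 replicate 2 (-1.24).

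Of 16 endoderm and hypoblast genes, the chemokine receptor CXCR4 was called higher and the hepatic and hypoblast factors HNF4A and HHEX lower. CXCR4 was at 3.20 and 1.9 CPM, then 14.3 and 11.4, then 11.1 and 12.4 (2.16 ± 0.31, adjusted p = 4.87e-06), while the summed list went from 216 and 218 CPM to 178 and 190. HNF4A was not called without day 4 replicate 2 (-1.65), nor HHEX without day 2 replicate 1 (-1.43) or day 4 replicate 1 (-1.16). Among 11 neural genes, 5 were called higher (PAX6, SOX3, SOX11, NEFL and NEFM) and none lower, and SOX3 and SOX11 stand also in the formative list. PAX6 (2.40 and 3.32 CPM, then 6.41 and 6.09) was not called without any 1 of the 4 libraries (0.89 to 1.36). NEFM was not called without day 2 replicate 1 (2.19), day 2 replicate 2 (2.42) or day 4 replicate 2 (1.91), so the neural list had 3 calls without either day 2 library or day 4 replicate 2. NEFM was near the floor on day 2, with 4 counts in all and 26 on day 4, a ratio of 5.28 (95% counting interval 1.83 to 20.8). NEFL, a neurofilament chain, went from 5.40 and 6.17 to 17.5 and 13.3 CPM, with no call when Ex2 was day 4 (0.91). Of 13 fibroblast genes, 4 were called higher and 1 lower, with a sum of 165 and 154 CPM on day 2 and 191 and 177 on day 4. COL1A1 rose from 3.20 and 4.51 to 14.4 and 12.2 CPM and TWIST2 from 2.40 and 2.37 to 8.32 and 8.24, the latter without a call in Ex2 (1.10, adjusted p = 0.0526). COL1A2 just passed (1.01 ± 0.14) and did not without day 2 replicate 2 (0.87) or day 4 replicate 1 (0.99). COL5A1 fell from 14.0 and 15 to 3.99 and 2.87. PDGFRB had no count on days 2 and 3 and 1.73 and 2.15 CPM on day 4, at least 2.98-fold above a floor of 3 counts per library.

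Calls among genes of cell shape and contact were upward. Of 24 contractile genes and YAP targets, 5 were called higher (ANKRD1, AJUBA, CNN1, ACTC1 and AXL) and none lower, with a median log2 change of 0.59, or 0.53 if genes near the floor take their bound. CNN1, the smooth muscle protein calponin, was at 12.2 and 20.4 CPM on day 2, 17.7 and 28.2 on day 3 and 47.8 and 50.9 on day 4 (1.61 ± 0.26, adjusted p = 2.44e-05). AJUBA, a LIM protein of junctions and the Hippo pathway, rose from 3.20 and 2.14 to 13.2 and 13.6 CPM. The YAP target ANKRD1 (1 and 0 counts on day 2, 39 in all on day 4) had a ratio of 31.7 with an interval of 5.36 to 1282. The receptor kinase AXL (3 counts, then 81) had a ratio of 21.9 with an interval of 7.24 to 108. Without day 2 replicate 1 the contractile list had 8 calls, with AMOTL1, LATS2 and TEAD1 added, and with Ex2 as day 4 it had 9, with LATS2, MYL9, TAGLN and TPM1 added. Of 21 cadherin and epithelial genes, 6 were higher (CDH2, CDH11, CLDN4, OCLN, KRT19 and VIM) and none lower, of which CLDN4 was lost without either day 2 library or day 4 replicate 2 (0.91 to 2.14). KRT19, an epithelial keratin, climbed from 14.0 and 13.1 through 23.1 and 29.4 to 41.4 and 43.2 CPM (1.64 ± 0.17, adjusted p = 1.58e-08). OCLN, the tight junction protein occludin, rose from 46.2 and 44.4 to 96.0 and 102. Of 23 matrix and integrin genes, COL18A1, COL5A2 and LAMA3 were higher and none lower, and COL5A2 was lost without day 2 replicate 2 (1.69). COL5A2 was near the floor on day 2, with 3 counts in all and 23 on day 4, a ratio of 6.22 (95% counting interval 1.88 to 32.4). COL18A1, a basement membrane collagen, waited until day 4, with 8.00 and 8.54, 10.8 and 11.2, and 29.3 and 32.8 CPM (day 3 to 4, 1.49 ± 0.23, adjusted p = 0.000165). JUN, the AP-1 subunit, was the call of 13 immediate early genes, at 20 and 20.2, 29.0 and 37.2, and 74.5 and 82.4 CPM (1.96 ± 0.15, adjusted p = 3.43e-11).

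Many low-oxygen and glycolysis genes were higher on day 4. All 14 low-oxygen genes tested had a positive change (8392 of the 16674 genes tested did), the median log2 change was 0.98, and 7 were called higher (ADM, NDRG1, EGLN1, EGLN3, BNIP3, PDK1 and P4HA1). Their summed level was 574 and 490 CPM on day 2, 817 and 918 on day 3 and 1121 and 1168 on day 4. ADM, the vasodilator peptide adrenomedullin, was at 2.40 and 3.80, then 10.1 and 9.81, then 17.3 and 19.5 CPM (2.58 ± 0.29, adjusted p = 6.62e-08). BNIP3, which takes part in the removal of mitochondria, was at 228 and 168, then 337 and 390, then 459 and 502 CPM (1.28 ± 0.13, adjusted p = 7.51e-09). P4HA1, a collagen prolyl hydroxylase, was at 103 and 96.6, then 153 and 176, then 218 and 219 CPM (1.13 ± 0.10, adjusted p = 2.38e-10). For all 3 genes the days kept their order without overlap. EGLN3, a prolyl hydroxylase that marks hypoxia-inducible factors for removal, went from 10.2 and 14.0 to 29.1 and 26.7 CPM, a change of 1.22 ± 0.16 that became 0.98 without day 2 replicate 1. VEGFA, the vascular growth factor, was at 22.4 and 22.1 CPM on day 2, 23.9 and 23.6 on day 3 and 43.2 and 40.3 on day 4, a change of 0.91 ± 0.15 inside the fold threshold.

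Of 26 glycolysis genes, 8 were called higher (SLC2A3, HK2, PFKM, PFKFB3, PFKFB4, LDHA, SLC16A3 and PDK1) and none lower, with a median log2 change of 0.78. SLC2A3, the glucose transporter GLUT3, was at 370 and 418 CPM on day 2, 597 and 667 on day 3 and 857 and 892 on day 4 (1.15 ± 0.09, adjusted p = 5.82e-11). PFKFB3, which makes the activator of phosphofructokinase, climbed from 15 and 12.1 through 40.1 and 56.7 to 80.9 and 79.4 CPM (2.55 ± 0.19, adjusted p = 1.25e-11). LDHA, the lactate dehydrogenase subunit (chr11:18394560-18408425), was at 294 and 299 CPM on day 2 and 678 and 714 on day 4, while its day 3 libraries disagreed at 335 and 612. SLC16A3, a lactate exporter, went from 8.00 and 13.8 to 27.7 and 33.0 CPM, and PDK1, a kinase that inhibits pyruvate dehydrogenase, from 24.6 and 17.6 to 47.1 and 48.7. FBP1, which runs the opposite, gluconeogenic step, fell from 75.8 and 73.8 through 56.4 and 39.8 to 16.5 and 15.6 CPM (-2.22 ± 0.17, adjusted p = 3.43e-11). Without day 2 replicate 2 the low-oxygen calls went from 7 to 5, losing EGLN1 (0.87) and PDK1 (0.95). The glycolysis calls went from 8 to 7, losing PDK1, HK2 (0.79), PFKFB4 (1.29) and PFKM (1.03) and gaining ALDOC, ENO2 and HK1. EGLN1 (0.93) and HK2 (0.94) were also lost without day 4 replicate 2.

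The Ex2 libraries of day 4 did not carry this group to the same extent. With them in place of day 4, 3 low-oxygen genes were called against day 2 in place of 7, and 3 glycolysis genes in place of 8, with HK2, LDHA, PDK1, PFKFB4, PFKM and SLC16A3 lost and TXNIP gained as lower. LDHA was at 359 and 381 CPM (0.33), P4HA1 at 82.3 and 87.3 (-0.22), PDK1 at 16.9 and 18.1 (-0.27), SLC16A3 at 8.34 and 9.99 (-0.21) and BNIP3 at 253 and 309 (0.51). SLC2A3 (807 and 869 CPM), PFKFB3 (57.8 and 58.5) and ADM (26.3 and 27.1) were called as in the main experiment. In all, 15 of the 30 lists changed their count of calls by more than 1.5 times with Ex2, among them the naive list (5 to 3 calls), the fibroblast list (5 to 3), the FGF list (1 to 2, with FGF2 added) and general pluripotency (1 to 0). Others moved to 6 calls in the matrix list (5 higher and 1 lower), 4 in the immediate early list (2 higher and 2 lower), 5 in the sterol and fatty acid list and 3 in the imprinted list. Ex2 had no day 2, so day and experiment cannot be told apart in that comparison. TXNIP, an inhibitor of glucose uptake, was at 46.4 and 45.8 CPM on day 2, 26.8 and 31.2 on day 3, 72.6 and 78.7 on day 4 and 20.1 and 20.2 in Ex2. It was the lowest on day 3 and the highest on day 4 among the 6 N2B27 libraries of days 2, 3 and 4 of the main experiment. The later interval passed (1.38 ± 0.16, adjusted p = 1.22e-06).

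At the fold threshold no respiratory gene passed. None of 13 mitochondrially encoded and none of 45 nuclear respiratory chain genes was called, with median changes of -0.46 and -0.04, and all 13 of the former were negative. Their summed level was 21848 and 21907 CPM on day 2, 17625 and 15326 on day 3 and 16256 and 15325 on day 4. None of 13 heat shock genes and none of 22 p53 targets was called either. For these 4 lists DESeq2 also called none, while some alternatives called members: MT-ATP8, NDUFA1 and CDKN1A without day 2 replicate 1, SDHD without day 2 replicate 2, and HSPA1A, CDKN1A and GDF15 with Ex2 as day 4. Without the fold threshold, 10 of the 13 mitochondrial, 5 of the 45 nuclear respiratory, 8 of the 13 heat shock and 5 of the 22 p53 genes had an adjusted p under 0.05 by edgeR, against 22.2% of all genes tested. At an unadjusted p under 0.05 the numbers were 11, 9, 9 and 7, against 34.5% of all genes. The ATF4 list of 27 genes had VLDLR higher, from 10.2 and 10.7 to 21.8 and 20.2 CPM, and the stress protein gene NUPR1 lower, from 7.2 and 6.41 to 3.29 and 1.97. VLDLR was inside the fold threshold without day 2 replicate 1 or day 4 replicate 1 (0.96 for both), and NUPR1 was lost without day 2 replicate 1 (-1.28) or day 4 replicate 2 (-1.07). Among 34 sterol and fatty acid genes, FADS1, a fatty acid desaturase, rose from 44.6 and 45.6 to 110 and 108 CPM. Of 34 cell cycle genes, CCND1, CCND2 and CDK6, which act together in G1, were higher. CDKN2A, an inhibitor of CDK4 and CDK6, was lower near the floor (3.80 and 2.14, then 0.520 and 1.08 CPM) and lost its call without any 1 of the 4 libraries (-1.41 to -2.49). CCND2 was at 264 and 196, then 650 and 571, then 679 and 699 CPM, and CDK6 at 12.2 and 12.6, then 42.8 and 29.8, then 57.0 and 52.0 (2.14 ± 0.15, adjusted p = 1.04e-11). Metallothioneins bind zinc and copper and share much of their sequence. All 9 genes of the metallothionein list had negative changes, with a median of -0.67. That list is not the family itself, since it leaves out MT1A and holds a gene from outside it. MT1G was called, at 1526 and 1760, then 874 and 1132, then 769 and 767 CPM (-1.10 ± 0.09). Its change was inside the fold threshold with Ex2 as day 4 (-0.58) and without the 2 libraries that stood apart (-0.97). NNAT, a paternally expressed imprinted gene, was the single call of 19 imprinted genes, from 28.8 and 31.3 through 79.5 and 91.7 to 154 and 161 CPM (2.39 ± 0.15, adjusted p = 5.33e-13).

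**Figure D3:**
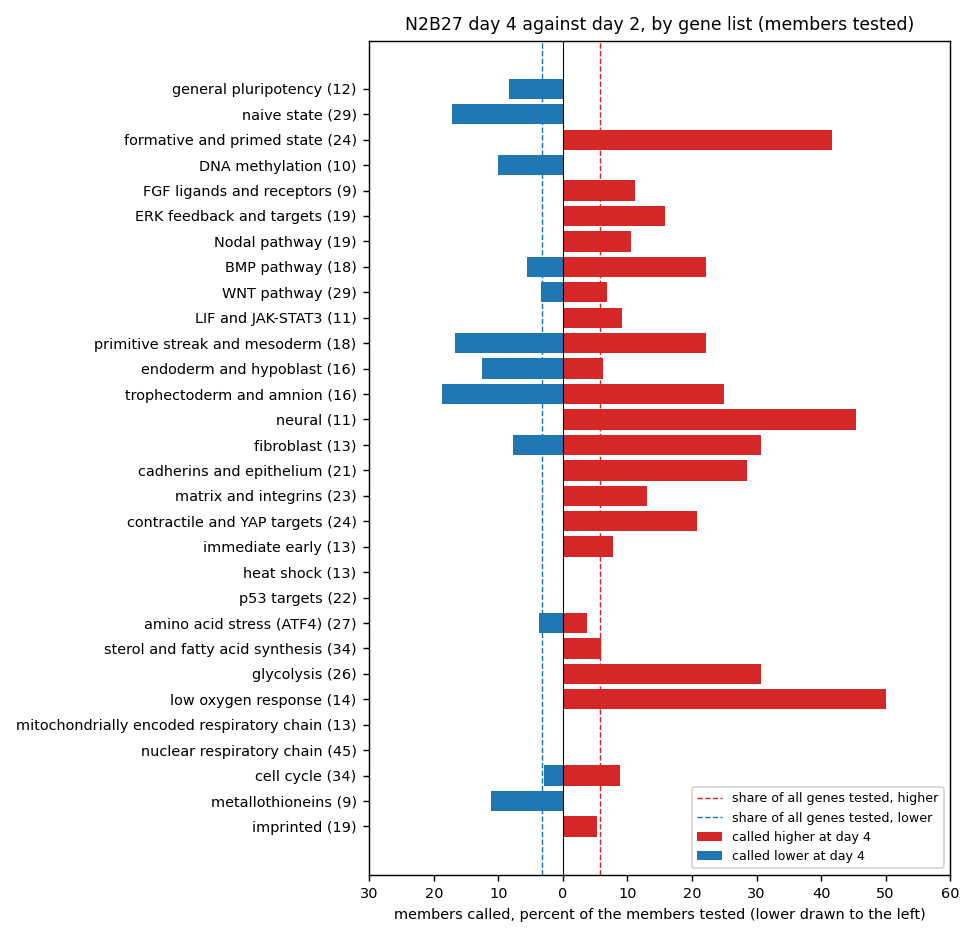
Share of each gene list called higher (right) or lower (left) from day 2 to 4 in N2B27, in percent of the members tested, whose number follows each name. Dashed lines mark the shares of all genes tested, 5.67% higher and 3.24% lower. The low-oxygen list reaches 7 of 14, and the heat shock, p53 and respiratory lists have no bar.

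The genes with the largest falls were of mixed kinds. LYST, a regulator of lysosome trafficking, was at 25.6 and 37.0 CPM on day 2, 6.64 and 5.81 on day 3 and 4.16 and 1.61 on day 4 (-3.41 ± 0.34, adjusted p = 5.98e-09). PRDM1, a transcriptional repressor that acts in germ cell and trophoblast lineages, went from 32.0 and 39.4 through 16.7 and 10.8 to 5.20 and 8.78 CPM. HOXB2 went from 25.8 and 18.0 to 3.47 and 3.76, and H2AFY, a macroH2A histone gene, from 79.4 and 94.2 through 35.9 and 39.4 to 18.7 and 16.7. These 4 were called without either day 2 library. AP000533.2 (11.2 and 48.6 CPM on day 2), AL512310.7 (12.8 and 69.8), AC010197.2 (13.6 and 47.7) and DPH1 (12.8 and 45.1) instead were several times higher in day 2 replicate 2 than in replicate 1, with 3.94 to 7.63 CPM on day 4, and none of these 4 was called without day 2 replicate 2 (-0.79 to -1.42). RNA5-8SN2, a ribosomal RNA gene with several copies, went from 48.8 and 72.9 to 7.80 and 5.38 CPM and MTCO1P40, a nuclear copy of a mitochondrial gene, from 30.4 and 32.3 to 6.24 and 5.73, both with reads that other copies may share. From day 3 to 4, EFNB2, the ephrin-B2 ligand, was among the largest falls, at 55.8 and 59.8, 66.4 and 55.7, and 21.3 and 23.1 CPM (-1.45 ± 0.16, adjusted p = 1.08e-06).

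By class of gene, 85.0% of the genes called higher were protein coding and 2.01% pseudogenes, against 77.4% and 6.21% of all genes tested. Of those called lower, 55.5% were protein coding and 16.1% (87 genes) pseudogenes. 17 of the 30 tested pseudogenes named after mitochondrial genes were called lower and none higher. Their summed level was 3640 and 4627 CPM on day 2, 2814 and 1968 on day 3 and 2110 and 1975 on day 4. Without day 2 replicate 2, 18 of 280 genes called lower were pseudogenes (6.43%) and 4 of them were mitochondrial copies.

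The same 2 days in E8 gave a test of whether the N2B27 step was shared. The change in N2B27 minus that in E8 was called for 50 genes on the higher side (0.300% of those tested) and 56 on the lower (0.336%), a split of 47.2% higher. That share was 35.0% with plain library totals, 55.6% with RLE size factors and 54.7% with a filter of more than 10 counts, so the majority direction differed between settings. The E8 day 2 libraries stood apart in composition, with the lowest TMM factors of the 38 libraries (0.903 and 0.904), the highest share of counts in the top 100 genes (21.7% and 21.8%, against 18.0% and 19.4% for N2B27 day 2) and 11% and 11.1% of counts in ribosomal protein genes (8.75% and 8.84%). Their pseudogenes of mitochondrial genes summed to 5729 and 6273 CPM. Every difference between the media rests on these libraries, and the part of their composition in it was not tested. Leaving out any 1 of the 8 libraries other than E8 day 2 replicate 1 (72 calls) moved the count by more than 1.5 times, from 37 without E8 day 2 replicate 2 or N2B27 day 4 replicate 2 to 196 without N2B27 day 2 replicate 2. LDHA was at 269 and 340 CPM on day 2 in E8 and 267 and 309 on day 4, so that the changes differed by 1.31 ± 0.25 (adjusted p = 0.00585). P4HA1 moved from 96.6 and 101 to 99.2 and 102 CPM in E8 (difference 1.10 ± 0.14, adjusted p = 8.96e-05) and PDK1 from 17.0 and 20 to 16.7 and 15.2 (1.39 ± 0.31, adjusted p = 0.0191). For these 3 genes the E8 libraries of both days overlapped or lay close together while N2B27 day 4 stood above all others. KDM3A, a histone demethylase of the low-oxygen list, went from 62.2 and 53.4 to 110 and 108 CPM in N2B27 and from 60.1 and 84.3 to 54.5 and 62.3 in E8 (1.22 ± 0.22, adjusted p = 0.00467). TXNIP had lower values on day 4 than on day 2 in E8, from 25.1 and 29.2 to 13.2 and 16.6 (1.58 ± 0.25, adjusted p = 0.00191). In the other direction, COL1A1 reached 31.1 and 32.7 CPM in E8 against 14.4 and 12.2 in N2B27 (-1.93 ± 0.40, adjusted p = 0.0108). Of these 6 genes TXNIP and P4HA1 were called under every alternative run. SLC2A3 rose in value in both media, to 579 and 589 CPM in E8 from 264 and 217, and its difference was not called.

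**Figure D4:**
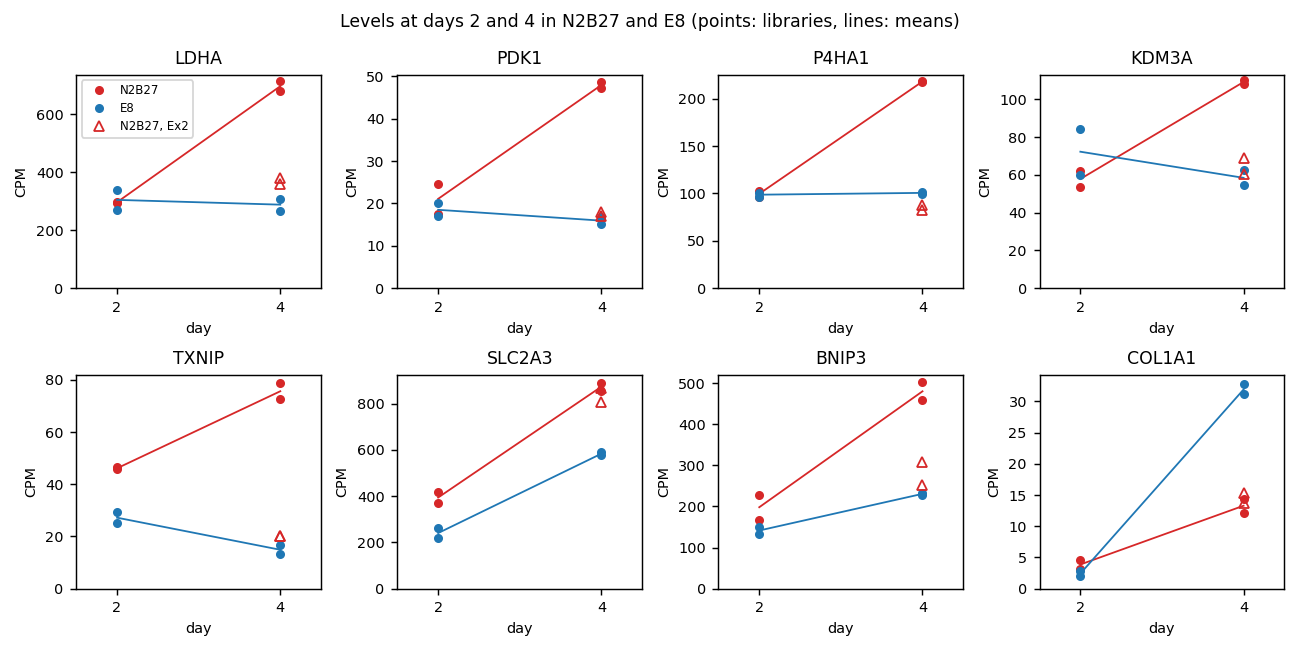
Level (CPM) of 8 genes on days 2 and 4 in N2B27 (red) and E8 (blue), with a point for each library and lines through the means, and open triangles for the Ex2 libraries of N2B27 day 4. LDHA, PDK1, P4HA1, KDM3A and TXNIP are higher on day 4 in N2B27 of the main experiment than in any other group drawn, and COL1A1 is highest in E8.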

How the data were processed

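3′ mRNA libraries (QuantSeq) of Shef6 cells were read as a table of counts per gene that the authors deposited, which gave 57133 genes in 38 libraries. Per the study's methods and the submitters' processing notes, reads were aligned with STAR 2.7.10a, quantified with Salmon 1.9.0 on hg38 and checked with FastQC 0.11.9, and the estimated counts were summed to genes, stand as whole numbers and were not normalized before deposit. The annotation release is not given in the sources used here. A 3′ tag counts transcripts and not bases. Changes were tested within a gene, and the summed level of a list adds the CPM of its members, so abundant members weigh most.

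Counts were analysed with edgeR 4.0.16 in R 4.3.3. Genes were filtered with filterByExpr, which left 16674 genes holding 99.6% of the counts (14445 had no count in any library), and scaled by TMM. The quasi-likelihood test was fitted to all 38 libraries as 19 groups of 2, which shared 1 estimate of the spread (residual df 19, prior df 12.7, coefficient of variation 10.0%). Contrasts were day 4 against day 2, day 3 against day 2, day 4 against day 3, and the day 2 to 4 change in N2B27 minus that in E8. P-values were adjusted by Benjamini-Hochberg over all genes tested, and a gene was called at an adjusted p under 0.05 and an absolute log2 fold change above 1. SE was the absolute log2 fold change divided by the square root of F. Genes with 3 or fewer counts in each library of a group have a ratio of summed counts with an exact 95% counting interval. On simulated counts for day 4 against day 2 (16454 genes), 94% of genes changed 2.5-fold and 99% of those changed 4-fold were recovered, with 6 false calls. For the difference from E8 (16454 genes) these shares were 78% and 96%, with 6 false calls. The changed genes were drawn only from those above a set mean level. No simulated library was made to stand apart as some of the real ones did. The shares and false calls therefore do not cover genes at low levels or that extra spread between replicates.

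Named genes were members of 30 gene lists, and, among called genes whose groups did not overlap and whose higher group averaged 20 CPM or more, the 10 largest rises and falls from day 2 to 4 and the 5 largest of each in the other contrasts. The members and lists were chosen with earlier results of these data known. Some members of the lists are not reported here. Gene positions are from GENCODE release 44 (639 of 646 genes matched). Alternatives were RLE factors, plain totals, other filters, DESeq2 1.42.0, a replicate block, fewer libraries, Ex2 for day 4, and leaving out each library. No chi-square comparison of replicates was within sampling noise (8.02, 8.36 and 1.88 per degree of freedom on days 2, 3 and 4).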

Additional observations from a re-analysis of the deposited data

Results flagged for a closer look

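For 17 named genes the change from day 2 to 4 in N2B27 differed from that in E8 by the interaction term of the edgeR quasi-likelihood test, with adjusted p from 8.96e-05 (P4HA1) to 0.0497 (MT-ND6), and these are given as values with no explanation. The difference is the log2 change in N2B27 minus that in E8, on 2 libraries per medium and day. In glycolysis and low-oxygen genes it was 1.31 for LDHA, 1.39 for PDK1, 1.58 for TXNIP, 1.10 for P4HA1 and 1.22 for KDM3A, all toward N2B27. EOMES differed by 3.82, with 2.48 and 2.95 CPM on day 2 and 0 and 0.789 on day 4 in E8, a level at the floor, so that value depends on very few counts. COL1A1 differed by -1.93. MT-ND6 (-1.18), which is encoded in mitochondria, and the metallothioneins MT1M (-1.11) and MT1A (-1.88) had lower values on day 4 than day 2 in N2B27 and higher ones in E8, from 15.6 and 14.4 to 26.9 and 34.5 CPM for MT1A. RPS2P55 (2.73), AC004453.1 (2.33), GTF2IP4 (1.66) and AC024293.1 (1.56) had their highest levels in E8 on day 2, at 20.5 and 28.2 CPM for RPS2P55 against 4.0 and 7.36 in N2B27, and for RPS2P55 and GTF2IP4, which are pseudogenes by name, reads may be shared with other copies. AL591742.2 (-3.02) rose further in E8, to 34.9 and 48.7 CPM against 12.7 and 14.2 in N2B27. GPM6A (-2.29), a neuronal membrane protein gene, and CCDC26 (-1.91), a non-coding RNA gene, were lower on day 4 in N2B27, at 15.6 and 19.4 CPM and at 12.8 and 12.5, and had higher values on day 4 than on day 2 in E8. TXNIP, P4HA1 and MT1A were called in all 15 alternatives run, and MT-ND6 in 5 of them. Most of the 17 genes lost the call without E8 day 2 replicate 2, so those calls depend on that library.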

How the results depend on the processing

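Of 3312 pairs of a named gene's comparison and an alternative, 2876 kept direction and call, 425 lost the call, 4 gained one (ETV4, NODAL and KDM3A without day 2 replicate 1 and EGR1 with Ex2) and 7 reversed. Reversals with the Ex2 libraries as day 4 were DUSP6 (-0.21), SLC16A3 (-0.21), PDK1 (-0.27), P4HA1 (-0.22) and TXNIP (-1.18), and NANOG, not called, ranged from -0.040 to 0.127 on leaving out each replicate (negative without day 2 replicate 2) and gave -0.0058 without that library and day 3 replicate 1. Day 4 against day 2 (1486 calls) ranged from 890 to 1763 on leaving out each replicate, and gave 956 with only the 6 N2B27 libraries fitted, 951 without the 2 libraries that stood apart (chosen after seeing the data), 1112 by DESeq2 and 1309 with Ex2, 785 of these shared. Day 3 against day 2 (531) ranged from 206 to 882, with 78 when only the compared libraries were fitted and 141 without the 2 libraries. Day 4 against day 3 (181) ranged from 48 to 498, with 23 from the compared libraries alone, 116 by DESeq2 and 61 without the 2 libraries. The difference from E8 (106) ranged from 37 to 196, with 192 when low counts were kept and 54 from the compared libraries alone. The cause was not tested, beyond fewer libraries giving fewer degrees of freedom. Where an arm was left with 1 library, that library was assumed to vary like the other groups. Replicate numbers did not pair the samples (correlation of replicate differences -0.12, -0.02 and 0.06 for days 2 and 3, 2 and 4, and 3 and 4). With the replicate block, calls were 1485, 527, 185 and 114, and POU5F1 and CDKN2A were the named genes that lost theirs. With the numbers of day 3 crossed, day 3 against day 2 had 524 calls. The floor of 3 counts per library was a level of 0.520 to 0.738 CPM, and levels below it could not be told apart reliably.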

Other observations

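A few further genes of the largest changes belong to none of the groups described. TOX2, a chromatin-binding HMG-box factor, was at 12.0 and 8.07 CPM on day 2, 47.2 and 33.6 on day 3 and 45.8 and 51.2 on day 4, so its libraries separated by day 3 (log2 change 1.98 ± 0.20, edgeR quasi-likelihood adjusted p = 7.34e-08). RGCC, a cell cycle regulator, went the other way over both intervals, at 58.0 and 29.4, 29.5 and 19, and 9.71 and 8.96 CPM (day 2 to 4, -2.23 ± 0.27, adjusted p = 2.22e-07). PRICKLE1, a planar cell polarity gene, fell from day 3 to 4 (43.1 and 35.4 CPM, then 15.6 and 13.3), although without day 3 replicate 1 that change of -1.29 was not called. SINHCAFP3, a pseudogene whose reads may be shared, had 71.4 and 48.3 CPM on day 3 and 31.9 and 14.9 on day 4 (-1.34 ± 0.29), and -1.04 with no call without the same library. Among pseudogenes of mitochondrial genes with the largest falls from day 2 to 3, MTATP8P2 was at 14.4 and 29.4, 1.48 and 3.60, and 7.45 and 4.30 CPM and MTCO2P22 at 18.0 and 49.6, 6.64 and 7.81, and 7.97 and 8.42, neither called on day 4 against day 2 without day 2 replicate 2 (-1.30 and -1.15). SNORD3B-2, a small nucleolar RNA gene with near-identical copies, was at 18.0 and 29.2, 4.68 and 5.61, and 12.8 and 5.73 CPM.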
